A study of Rattus norvegicus with 6 samples.

Results

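Ultraconserved elements are stretches of genome that are identical in sequence between human, mouse and rat, and 481 of them were represented on the expression array used here by a probe for each strand. These 962 strand probes, named by element number and strand such as uc.46+ and uc.46-, were all the non-control probes whose identifier starts with uc., out of 24684 non-control probes on the array. Element numbers ran from 1 to 483, with 11 and 32 absent. The study compared pancreatic islets of Wistar male rats at 3 and at 12 months of age, with no other treatment, and asked how ageing alters islet gene expression. The islets had been freed from the pancreas by collagenase digestion, and each of the 3 arrays per age carried RNA of islets in a single colour (Cy3). The supplement to the study names 3 rats of each age, as many as the arrays of that age, but the labels do not tie an array to a rat. P-values measure the spread between the arrays of an age. All 3-month arrays were read in one scan and all 12-month arrays in another. For every value below, scan and age therefore cannot be told apart.

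Ultraconserved elements lie within exons, within introns or far from genes, and those in exons often belong to genes for RNA-binding and splicing proteins, where they include alternatively spliced exons that set the level of the protein. Elements far from genes often sit beside developmental regulators and can act as enhancers. Many elements are transcribed, on one strand or on both, and such transcripts have been studied in tumours, in nerve injury and in the gut. The numbering follows the order of the elements along the human chromosomes, and the array gives no rat position for them, so they are described here by number and strand as the probes are named. No sequence or coordinate of these elements was in the sources used here, and none is printed.

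The tissue label was checked against markers. All 6 endocrine genes (Ins1, Ins2, Gcg, Sst, Ppy and Iapp, which encode islet hormones) were well above background on all 6 arrays and none of them reached an adjusted p under 0.05. All 6 acinar genes, which encode digestive enzymes, were also well above background on all 6 arrays, with a summed signal of 955184 to 1555530 at 3 months and 959965 to 1773500 at 12 months. Of 6 nerve and Schwann cell genes, 5 were tested and 2, Prph and Sox10, fell (limma, adjusted p = 0.0299 and 0.0335), with a median log2 difference of -1.42. The summed signal of these 5 genes was 4411 to 7840 at 3 months and 1705 to 2631 at 12 months, and their part in the values of ultraconserved elements was not tested. Medians of the log2 differences were 0.03 for 2 duct, -0.67 for 4 endothelial and -0.00 for 4 immune genes. The endothelial genes went both ways, with Pecam1 at 1.23 and Cdh5, Flt1 and Plvap at -2.11, -0.76 and -0.59. None of them reached an adjusted p under 0.05 (limma), and Cdh5 was above background on 3 arrays only.

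Most strands gave little or no signal. A spot counted as detected where the scanner software had marked it as well above background. Of 962 strands, 396, 423 and 462 were detected on the 3 arrays from 3-month-old rats, and 226, 210 and 184 on those from 12-month-old rats. The scans differed in what they could detect. The lowest signal marked as well above background was 7.65 to 10.5 scanner units at 3 months and 39.0 to 52.4 at 12 months, and negative control spots had a median of 29.5 to 31 and 89.5 to 91 units, respectively. On no array were 431 strands detected. On all 6 arrays 149 were detected, 69 of plus and 80 of minus strands. A further 128 strands were detected on all 3 arrays of 3 months and on none of 12 months, whereas 3 strands, uc.184+, uc.471- and uc.481-, showed the opposite pattern. Whether a strand went undetected at 12 months because of its level or because of the higher limit in that scan cannot be told apart.

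A strand was tested where at least 3 of its 6 spots were well above background. Tested strands numbered 370, or 38.5% of the strands, against 80.2% of 15323 messenger RNA (mRNA) probes. The other 592 strands were left out of the tests. Of the 481 elements, 74 had both strands tested, 113 only the plus strand, 109 only the minus strand and 185 neither. All values below are quantile-normalised log2 signals, and every difference is the mean of 12 months minus the mean of 3 months on that scale.

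Among the 149 strands detected on all 6 arrays, 110 were lower and 39 higher at 12 months, with a median difference of -0.60. Over all 370 tested strands 293 were lower and 77 higher, with a median of -0.66, beside a median of -0.17 over all 17941 tested probes and of -0.12 over tested mRNA probes. The 370 include 128 strands that passed the filter through the 3-month arrays alone, where the detection limit was lower, and 120 of these 128 were among the 293, so the counts over the 370 do not measure how often strands fell. By limma with Benjamini-Hochberg adjustment over all tested probes, 48 strands had an adjusted p under 0.05, where 8.37% of all tested probes passed. Of these, 20 were higher (5.32% of all probes) and 28 lower (3.05% of all probes), and 18 of the 28 had been detected on no 12-month array. Of the 149 strands detected on all 6 arrays, 11 were higher and 8 lower at this threshold. No share over all probes detected on all 6 arrays was taken for these counts. When only such probes were fitted, 26 of 149 strands passed, beside 1700 of 13494 probes. The study asked for a fold above 2 and for p under 0.05 before adjustment, and its supplement names a paired t-test. With a paired t-test over 3 pairs, 41 strands passed, beside 1552 of 17931 probes. With the p of limma, used for the study threshold here and below unless another test is named, 129 strands or 34.9% were called, against 22.0% of all tested probes. By direction, 26 were higher (10.1% of all probes) and 103 lower (11.9% of all probes). The groups did not overlap for 146 strands, 32 above and 114 below the 3-month arrays, and such separation occurred in 39.3% of all tested probes. Of the strands tested, 65 of 187 plus and 64 of 183 minus strands passed the study threshold.

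These numbers moved with the processing. A shift to the 75th percentile of each array in place of quantile normalisation moved the median of all probes by -0.23 and gave a median of -1.08 for the strands, or -0.68 relative to all probes instead of -0.49, with 23 strands called higher and 158 lower at the study threshold. After normexp background correction the median was -0.23, or -0.13 relative to all probes, with 21 called higher and 36 lower. Without 12-month replicate 1, 12-month replicate 3, 3-month replicate 1 or 3-month replicate 3, the calls at adjusted p fell from 48 to 12, 17, 18 and 19, and without 12-month replicate 2 they rose to 78. The balance of these calls turned over. Rather than 20 higher and 28 lower, there were 20 and 10 after normexp correction, 15 and 11 when only probes detected on all 6 arrays were fitted, 64 and 46 with no filter, 8 and 0 with a replicate block of 3 pairs, and 9 and 7 with the methods' t-test. Leaving out the first 4 arrays named above gave 9 and 3, 12 and 5, 11 and 7, and 11 and 8, respectively, whereas it was 24 and 54 without 12-month replicate 2 and 16 and 18 without 3-month replicate 2.

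Direction was tied to detection by the way the strands were grouped, since a strand detected only at 3 months can hardly be called higher at 12 months. All 45 of the strands called at the study threshold among the 128 of this kind were lower, which is no result about direction. For these the 12-month value is only a bound. With the 12-month arrays set to their detection limit, 21 of the 45 still lay lower at 12 months than at 3 months. Among the 149 strands detected on all 6 arrays, where both ages were measured, 57 were called, 16 of them higher and 41 lower, against 19.8% of all probes detected on all 6 arrays (11.1% higher and 8.71% lower). Set against the mean of the 3-month arrays, the median over the 149 strands was -0.67, -0.34 and -0.80 on the 12-month arrays and -0.04, -0.32 and 0.17 on the 3-month arrays. The second array of each age was the nearest to the other age, and the 12-month arrays all lay below the 3-month arrays, by 0.022 for the closest pair.

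**Figure D1:**
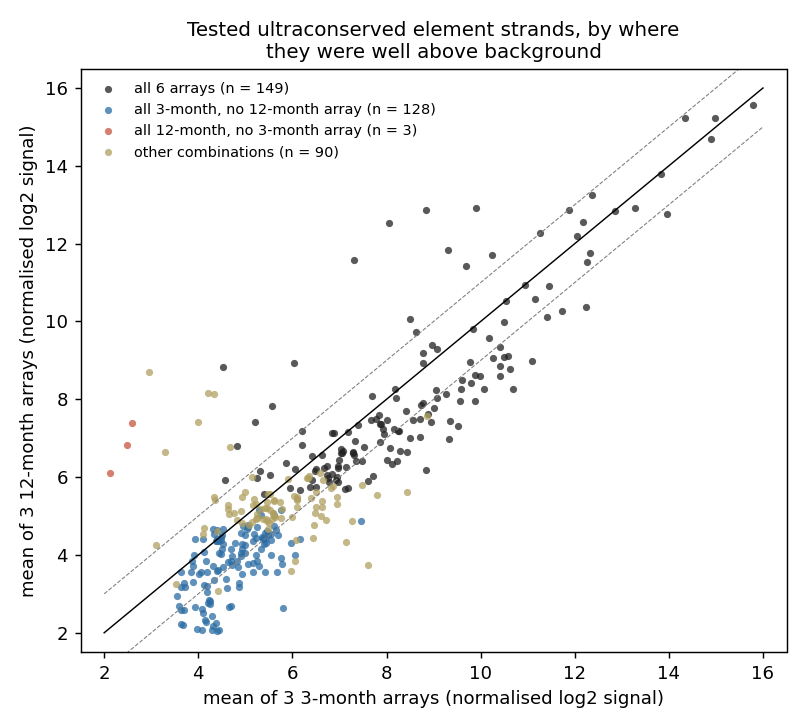
Mean normalised log2 signal of the 3 arrays from 12-month-old rats against that of the 3 arrays from 3-month-old rats for each of 370 tested strands, coloured by the arrays on which the strand was well above background. The solid line marks equal signal and the dashed lines a fold of 2. Most points lie below the solid line, 293 of 370, and a small group lies far above it, with some of its points detected on all 6 arrays and others near background at 3 months.

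The strands described next had the 10 largest rises and the 10 largest falls by fitted difference among strands with an adjusted p under 0.05, with ages that did not overlap and with 3 detected spots in the higher age. Of the rises, 4 were detected on all 6 arrays and 3 on no 3-month array, and 8 of the falls were detected on no 12-month array. Where an age was nowhere above background, the fitted difference is not a measured size and only a bound is given. The p of such a strand rests on undetected spots of that age and does not measure the change. Each bound holds for the quantile-normalised signal only. Rises and falls cannot be set against each other in size, since the detection limits of the ages differ. uc.185- gave 3.06, 2.56 and 3.26 on the 3-month arrays, only the last of them above background, and 8.71, 7.82 and 9.55 on the 12-month arrays. Its rise was 5.74 ± 0.46 (SE, limma, adjusted p = 0.00319). The neighbouring uc.184+ gave 2.11, 2.39 and 2.96, none above background, and 6.35, 6.91 and 7.25. Because its 3-month signal is only a bound, uc.184+ was higher at 12 months by at least 13.8-fold, with means of 2.49 and 6.84 (limma, adjusted p = 0.00307). The 3-month figure in such a bound is, for each array, the higher of the lowest signal well above background and that of the strand itself.

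Both strands of uc.471 and of uc.481 were among the 10. uc.471+ was detected on all 6 arrays, at 9.49, 8.97 and 8.06 against 12.86, 12.81 and 12.95, and rose by 4.03 ± 0.38 (SE, limma, adjusted p = 0.00447). uc.471- was not above background on any 3-month array, at 2.66, 2.82 and 2.30, and reached 6.82, 8.42 and 6.91 at 12 months. It was at least 20.5-fold higher (means 2.59 and 7.38, limma, adjusted p = 0.00452). For uc.481 the plus strand rose from 7.54, 7.12 and 7.25 to 11.30, 12.10 and 11.31, a difference of 4.27 ± 0.30 (SE, limma, adjusted p = 0.00252). The minus strand, at 2.15, 2.09 and 2.13, was not above background at 3 months and gave 5.73, 6.50 and 6.11 at 12 months, at least 8.53-fold higher (means 2.12 and 6.12, limma, adjusted p = 0.00227). In uc.471+ and uc.481+ the lowest 12-month array lay above the highest 3-month array by more than the range within either age. For the minus strands the 3-month range is that of undetected spots.

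uc.46- rose from 7.10, 7.83 and 9.21 to 12.58, 12.35 and 12.65, a difference of 4.48 ± 0.52 (SE, limma, adjusted p = 0.00891), and its 12-month arrays lay closer together than its 3-month arrays. uc.193- rose from 4.01, 5.25 and 4.33 to 8.64, 9.06 and 8.83, by 4.31 ± 0.36 (SE, limma, adjusted p = 0.00345). The last 2 of the 10 belonged to adjoining elements. uc.420+ gave 5.09, 4.86 and 2.67, the last not above background, against 8.09, 8.51 and 7.89, a difference of 3.96 ± 0.64 (SE, limma, adjusted p = 0.0200). uc.419- gave 3.72, 4.53 and 4.72, the first not above background, against 8.27, 6.63 and 9.54, a difference of 3.82 ± 0.72 (SE, limma, adjusted p = 0.0281), and its 12-month arrays were the most spread of the 10.

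The first 8 of these rises, all but uc.420+ and uc.419-, stayed at an adjusted p under 0.05 when any 1 array was left out. For uc.184+, uc.471- and uc.481- the 3-month values in these fits were those of undetected spots. Their p therefore does not measure a rise, and only the bounds above do. uc.420+ lost it without 12-month replicate 1 (4.0) or 12-month replicate 3 (4.10). uc.419- kept it only without 12-month replicate 2 and lost it without 12-month replicates 1 (3.76) or 3 (3.12) or 3-month replicates 1 (3.52), 2 (3.92) or 3 (4.02). After normexp correction, which compresses differences of dim probes, the 4 rises detected on all 6 arrays were 4.09 for uc.46-, 3.87 for uc.471+, 3.70 for uc.481+ and 2.64 for uc.193-, and those of uc.185-, uc.420+ and uc.419- were 2.77, 2.14 and 1.99. The log2 differences of uc.471-, uc.184+ and uc.481- were then 1.78, 1.38 and 1.05, smaller than the bounds given above.

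The largest falls were of 2 kinds. In 8 of the 10, no 12-month array was above background. uc.378+ was tight at 3 months, at 7.39, 7.46 and 7.55 against 4.75, 4.96 and 4.88, and was at least 5.65-fold lower at 12 months (means 7.46 and 4.86, limma, adjusted p = 0.00336). uc.120+, at 6.76, 5.46 and 5.18 against 2.05, 3.77 and 2.06, was at least 2-fold lower (means 5.80 and 2.62, limma, adjusted p = 0.0300). uc.446+ fell from 5.19, 6.47 and 5.35 to 3.82, 3.45 and 3.43, at least 1.82-fold (means 5.67 and 3.57, limma, adjusted p = 0.0267). For uc.67-, uc.76-, uc.87+, uc.277+ and uc.365+ the 3-month means of 4.29 to 4.44 lay below the mean detection limit of the 3 12-month arrays, so no fold is given although the limma test called them (adjusted p = 0.00430 to 0.0466). Their 12-month means were 2.05 to 2.24, none above background. All 8 of these falls passed the filter through the 3-month arrays alone. On the 12-month arrays uc.76-, uc.87+ and uc.67- ranged over only 0.0041, 0.014 and 0.021, the spread of undetected spots. The p-values of all 8 therefore do not measure a fall. For uc.378+, uc.120+ and uc.446+ the bound alone does.

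uc.208+ was the only one of the 10 falls detected on every array. It gave 11.01, 11.56 and 10.67 at 3 months and 9.15, 8.28 and 9.50 at 12 months, a difference of -2.11 ± 0.40 (SE, limma, adjusted p = 0.0287), with the ages apart by 1.17 at their closest. uc.239+ fell from 9.62, 7.75 and 7.95 to 5.06, 6.53 and 5.28, the last not above background, a difference of -2.82 ± 0.61 (SE, limma, adjusted p = 0.0404). Both depended on most arrays. Each kept an adjusted p under 0.05 in 1 of the 6 fits that left out 1 array, uc.208+ falling by 1.86 to 2.37 and uc.239+ by 2.23 to 3.16 in the fits that lost it. uc.378+ and uc.76- kept it in all 6, but for both the 12-month values were those of undetected spots. The rest are given by their p only, since their size was not measured. For none of them does that p measure a fall, as said above. uc.277+ lost the call without 12-month replicate 1 or 3 (limma, adjusted p = 0.0681 to 0.0823), uc.67- without these or 3-month replicate 1 (0.0647 to 0.0767), uc.87+ without these or 3-month replicate 3 (0.0505 to 0.0781), and uc.446+ without these, 3-month replicate 1 or 3-month replicate 3 (0.0608 to 0.0866). uc.120+ lost it in 5 fits, all but that without 12-month replicate 2 (limma, adjusted p = 0.0590 to 0.111), and uc.365+ in 5, all but that without 3-month replicate 2 (0.0601 to 0.147). After normexp correction the differences of uc.208+ and uc.239+ were -1.96 and -1.80. That of uc.378+ was -1.39 on the log2 scale, smaller than its bound above.

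**Figure D2:**
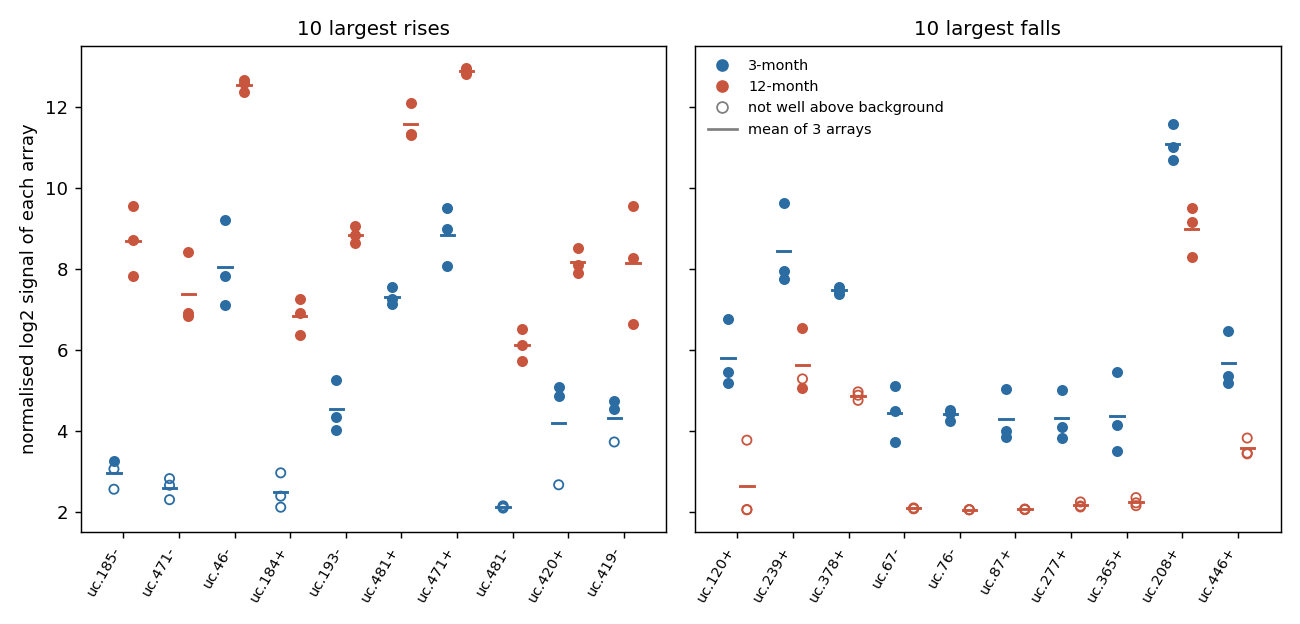
Normalised log2 signal on each of the 6 arrays for the 10 strands that rose most and the 10 that fell most among those called at an adjusted p under 0.05, with 3-month arrays in blue, 12-month arrays in red and horizontal bars for the mean of 3 arrays. Open circles were not well above background. The ages are apart in every strand, and most of the falls end in open circles.

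Some falls were measured at both ages. Apart from uc.208+, 7 strands detected on all 6 arrays passed an adjusted p under 0.05 with a lower signal at 12 months (limma). uc.462+ gave 12.38, 11.88 and 12.48 against 9.78, 10.90 and 10.47 and fell by 1.87 on the log2 scale. uc.182- fell from 7.57, 7.70 and 7.53 to 5.39, 6.38 and 5.94, a difference of -1.69 ± 0.30 (SE, limma, adjusted p = 0.0262). uc.88-, uc.345-, uc.359-, uc.204- and uc.482+ followed, with differences of -1.58 to -1.08. None of the 8 had overlapping ages. The 7 strands other than uc.208+ were not followed in the fits that left out 1 array.

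The 5 brightest tested strands did not pass the test. uc.305+ gave 15.59, 15.34 and 16.41 at 3 months and 15.07, 15.72 and 15.92 at 12 months, and uc.84- gave 14.63, 14.79 and 15.54 and 14.82, 15.21 and 15.68. The differences of uc.305+, uc.84-, uc.340- and uc.371- were -0.21, 0.25, -0.19 and -0.05, each with an SE of 0.34 to 0.38 and with overlapping ages. uc.465- was higher on every 12-month array, at 14.30, 13.99 and 14.77 against 15.30, 15.55 and 14.87, with a difference of 0.89 ± 0.31 (SE, limma, adjusted p = 0.108).

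The strands of one element were then compared. Levels of different probes are not comparable on this array, so the comparison was of the age difference on each strand. Of the 74 elements with both strands tested, 55 (74.3%) had age differences of the same sign. Most tested strands were lower, and the share was 69.1% for strands on adjoining numbers and 68.3% for numbers 20 apart. For strands detected on all 6 arrays it was 65% within an element, 62.7% at adjoining numbers and 77.6% at 20 apart. The count of equal signs therefore says nothing particular of strands of one element. The differences themselves had a Pearson correlation of 0.49 and a Spearman correlation of 0.28 within an element, against 0.22 and 0.10 at adjoining numbers. Within the 20 elements with both strands detected on all 6 arrays these were 0.46 and 0.51, against 0.19 and 0.25. With no filter they were 0.16 and 0.10 within an element. No test was run on these correlations. In 13 of the 74 elements both strands passed the study threshold, which 34.9% of tested strands and 22.0% of all tested probes passed singly. No share over pairs of other probes was taken, so the count says nothing particular of these 13. Both strands were lower in 7 of them (uc.102, uc.177, uc.251, uc.287, uc.299, uc.324 and uc.456), and none of these 14 strands reached an adjusted p under 0.05 (limma). The 7 of the 14 detected on all 6 arrays differed by -1.11 to -2.35, and 4 were detected on no 12-month array. Both were higher in 5 (uc.420, uc.455, uc.471, uc.472 and uc.481), and 8 of these 10 strands reached it (limma). In uc.420 the minus strand rose from 10.24, 9.81 and 9.66 to 13.24, 12.06 and 13.48, by 3.03 ± 0.42 (SE, limma, adjusted p = 0.0129), beside the rise of the plus strand of 3.96. uc.455+ and uc.455- differed by 2.22 and 2.53, and uc.472+ and uc.472- by 1.36 and 1.57, with the minus strand past an adjusted p under 0.05 in each (limma, adjusted p = 0.0287 and 0.0292). Without 12-month replicate 1 or 3-month replicate 3, uc.420- (2.87 and 2.91), uc.455- (2.56 and 2.59) and uc.472- (1.65 and 1.54) no longer passed, nor did uc.455- (2.32 and 2.06) and uc.472- (1.48 and 1.35) without 12-month replicate 3 or 3-month replicate 1.

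uc.193 was the one element whose strands were called in opposite directions. uc.193+ gave 5.89, 5.03 and 6.37 at 3 months and 2.96, 4.72 and 4.09 at 12 months, none of the latter above background, at least 1.95-fold lower at the study threshold (means 5.76 and 3.92, limma, adjusted p = 0.0757). uc.193- rose on the same arrays by 4.31. The contrast between strands, defined as the age difference of the plus strand minus that of the minus strand, was tested with limma over the 74 elements, and 7 of the 74, or 9.46%, passed an adjusted p under 0.05. The contrast of uc.193 passed (limma, adjusted p = 0.00227), but its size is not given, since uc.193+ has only a bound at 12 months. Its p likewise rests in part on undetected 12-month spots of uc.193+.

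In 3 more of the 7 elements the minus strand rose relative to the plus strand with the plus strand past neither threshold. uc.46+ lay at 7.09, 7.13 and 7.02 at 3 months and 6.46, 6.69 and 6.83 at 12 months, a difference of -0.42, beside the large rise of uc.46-, and the contrast was -4.90 ± 0.60 (SE, limma, adjusted p = 0.00227). uc.419+, with a single 12-month array above background, differed by 0.20 and the contrast of uc.419 was -3.61 ± 0.81 (SE, limma, adjusted p = 0.0392). uc.313- rose from 3.86, 4.84 and 5.32 to 6.90, 6.13 and 7.27 while uc.313+ gave 6.70, 6.99 and 8.90 and 6.38, 7.19 and 6.76, a contrast of -2.85 ± 0.61 (SE, limma, adjusted p = 0.0364). In uc.141 the plus strand was called lower at the study threshold, with a single 12-month array above background, and the minus strand passed neither threshold. Their differences were -1.0 and 0.99, a contrast of -1.99 (limma, adjusted p = 0.0446).

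The remaining 2 elements moved through the fall of one strand. uc.48- fell from 11.79, 9.76 and 10.52 to 7.59, 9.64 and 7.56, past the study threshold, while uc.48+ gave 6.45, 6.22 and 6.57 and 5.99, 7.89 and 5.77, with overlapping ages. The contrast of uc.48 was 2.56 ± 0.54 (SE, limma, adjusted p = 0.0364). uc.378+ was at least 5.65-fold lower and uc.378- differed by -0.44, with a single 12-month array above background. The contrast passed (limma, adjusted p = 0.0402) but its size was not measured, and its p rests in part on undetected 12-month spots of uc.378+. The contrasts of uc.193 and uc.46 passed in each of the 6 fits without 1 array, but for uc.193+ the 12-month values were those of undetected spots. Those of uc.419, uc.313 and uc.48 did not pass without 12-month replicate 1 (-3.44, -2.58 and 2.50), 12-month replicate 3 (-2.98, -2.58 and 2.60), 3-month replicate 1 (-3.20, -2.85 and 2.03) or 3-month replicate 3 (-3.60, -2.48 and 2.73). The count of 7 became 2, 3, 3 and 2 without these 4 arrays, and 15 without 12-month replicate 2.

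Elements with both strands higher did not pass this contrast, but 4 of the 5 did after normexp correction. There the contrasts were 2.09 for uc.471, with the sign turned from -0.76, 2.65 for uc.481, -1.12 for uc.455 and -0.85 for uc.472 (limma, adjusted p = 0.0229, 0.000408, 0.0229 and 0.0229), and that of uc.420 was -0.84 (limma, adjusted p = 0.302). The minus strands of uc.471 and uc.481 were at background at 3 months.

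**Figure D3:**
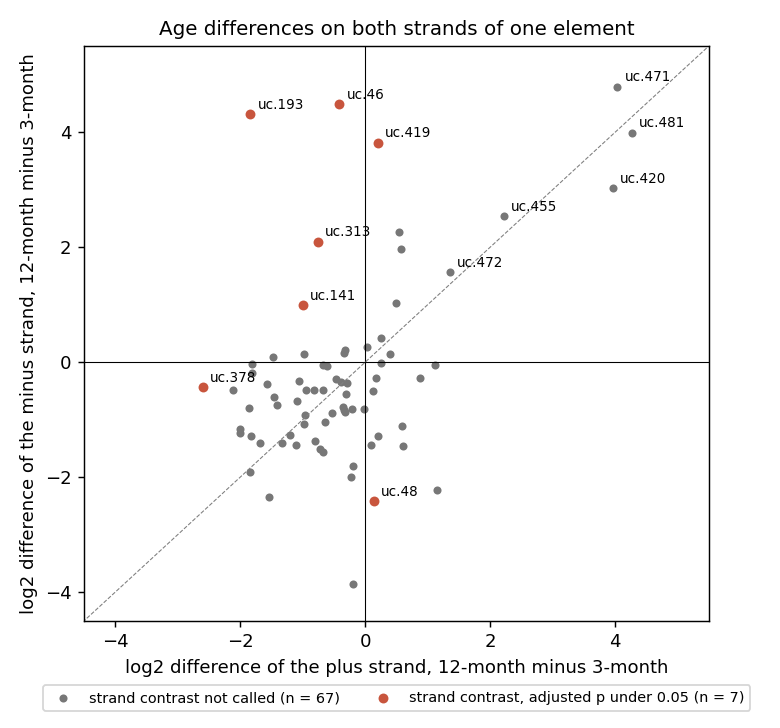
Age difference (12 months minus 3 months, log2) of the minus strand against that of the plus strand for the 74 elements with both strands tested. Red points are the 7 elements whose strand contrast had an adjusted p under 0.05, and the dashed line marks equal differences. Strands at background in one age are plotted at their fitted value. With quantile normalisation uc.420, uc.455, uc.471, uc.472 and uc.481 lie near that line on the higher side, while uc.193 and uc.46 lie far above it.

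Transcripts of some elements have been studied by name in earlier work. Of the 38 strands of 19 such elements, 20 could be tested in islets and 18 could not. Of the 20, 1 rose and 1 fell at an adjusted p under 0.05 (limma), close to the 8.37% of all tested probes called, so the count says nothing particular of these elements. The rise was on the plus strand of an element whose transcript has been studied in the lining of the gut. That strand went from 8.54, 8.69 and 8.64 to 9.52, 9.77 and 9.92, by 1.11 ± 0.23 (SE, limma, adjusted p = 0.0357). Its 12-month arrays lay within 0.40 of each other and the ages were apart by 0.83, but the adjusted call was lost when any 1 array was left out, with rises of 1.02 to 1.22. The minus strand of the same element gave 7.12, 7.72 and 7.35 and 6.93, 7.11 and 7.98, a difference of -0.06. The fall was on the minus strand of an element studied in tumours, from 3.78, 3.39 and 3.74 to 2.30, 2.32 and 2.05 (limma, adjusted p = 0.0215). With no 12-month array above background and 3-month signals under the 12-month limit, no fold can be given and its p does not measure a fall. That call was lost without 12-month replicate 1 or 3 or 3-month replicate 1 or 3 (limma, adjusted p = 0.0665 to 0.0904).

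Others passed the study threshold without an adjusted p under 0.05. uc.48, whose plus strand transcript has been studied in nerve tissue of diabetic rats, was called on its minus strand only, with a difference of -2.42 ± 0.73 from the values given above (SE, limma, adjusted p = 0.0801). uc.73-, of an element studied in colorectal tumours, had a difference of -3.86, further from 0 than that of any other strand called lower. Its spread was wide as well, with 9.75, 5.86 and 7.21 at 3 months, 2.16, 6.57 and 2.49 at 12 months and overlapping ages (SE 1.41, limma, adjusted p = 0.118). uc.63- gave 10.38, 9.14 and 9.17 against 7.85, 8.77 and 7.25, a difference of -1.61 ± 0.51 (SE, limma, adjusted p = 0.0879). The plus strands of 2 more elements were called. For the first, on no 12-month array above background, the bound was 1.03-fold lower at 12 months, and the other differed by -1.67 (limma, adjusted p = 0.154 and 0.109).

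The remaining 13 tested strands of this group passed neither threshold. The size of 6 of them was not measured, since they were on no 12-month array above background, among them uc.33+, uc.160- and the minus strand of an element in the gene of the splicing factor TRA2B. The plus strand of that element had a difference of 0.17. Those of an element in the gene of the RNA-binding protein PCBP2 were -0.99 on plus and -1.09 on minus, and the plus strand of an element in the gene of the glycosyltransferase OGT gave 0.16. uc.48+ and uc.73+ had differences of 0.14 and -0.20, and the minus strand of the element studied in the gut is given above. Neither strand was tested of 5 elements, uc.8 and uc.28 among them, and none of their strands was detected on more than 2 arrays.

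Ultraconserved element strands were dimmer than mRNA probes, with a median of 5.56 against 9.42 over the tested probes, so the 2 classes were compared at equal brightness. Over 10 bins of mean signal, 34.9% of the strands and 27.1% of mRNA probes were called at the study threshold, a gap of 7.80 percentage points, and the medians were -0.69 and -0.25. Without 12-month replicate 1 this gap was 0.298 percentage points. No test was run on these shares, since strands of one element and probes of one gene are not independent.

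The comparison was repeated with the 149 strands and 9721 mRNA probes detected on all 6 arrays, in 5 bins, a choice made after the data had been seen. There 38.3% of the strands were called, 10.7% higher and 27.5% lower, against 23.4% of mRNA probes, 14.3% higher and 9.05% lower. The median difference was -0.63 for the strands and -0.03 for mRNA probes, and 73.8% of the strands and 51.3% of mRNA probes were lower at 12 months. Non-coding RefSeq probes (738) had a median of 0.09 and probes with identifiers starting MR (1626), which the array design lists beside the RefSeq transcripts, one of -0.18. The gap in called share of 14.9 percentage points was 3.87 without 12-month replicate 1, whereas the gap in median of -0.60 stayed between -0.46 and -0.79 when any 1 array was left out. The strands were also noisier. At equal brightness their median SD within an age was 0.60, against 0.46 for mRNA probes.

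By brightness, the gap in called share and in median was widest in the fourth of the 5 bins, at 8.41 to 9.94. There 19 of 30 strands were called, with a median difference of -1.16, against 25.7% of mRNA probes and a median of -0.09. In the dimmest bin 6 of 30 strands were called with a median of -0.44, against 24.2% and 0.22 for mRNA probes. In the brightest bin, above 9.94, the median of the strands was -0.02 and that of mRNA probes -0.10, with 11 of 30 strands and 11.3% of mRNA probes called.

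**Figure D4:**
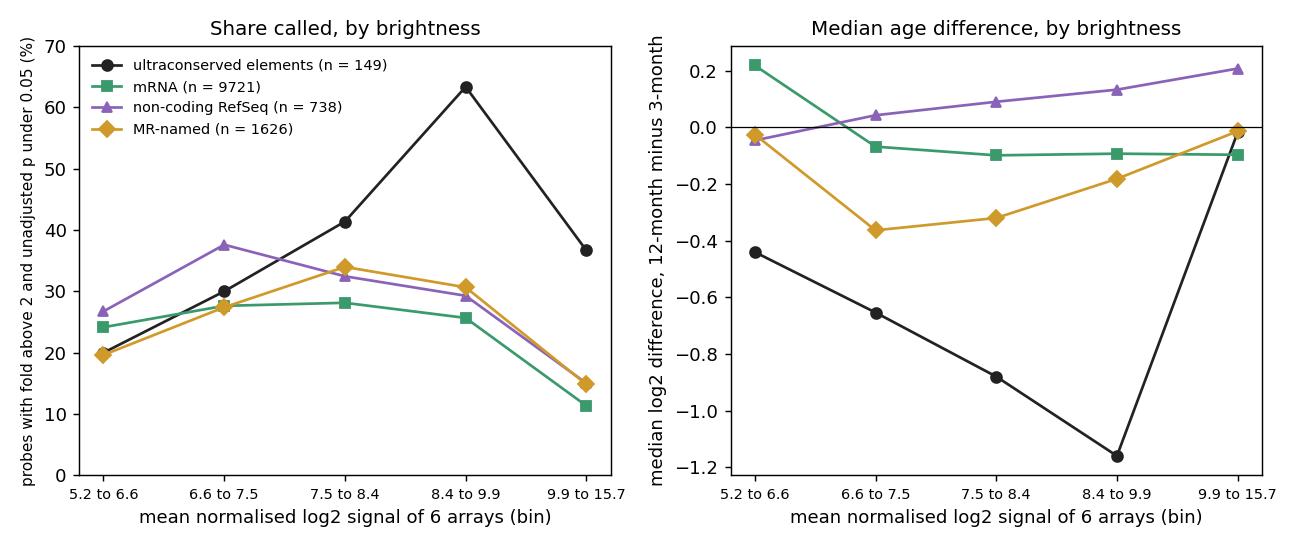
Share of probes called at the study threshold (left, %) and median log2 age difference (right) in 5 bins of mean normalised log2 signal, for probes well above background on all 6 arrays. Lines join the bins of 149 ultraconserved element strands, 9721 mRNA, 738 non-coding RefSeq and 1626 MR-named probes. The strands have the lowest median in the first 4 bins and the highest called share in the last 3.

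Strands called higher often shared an element or stood on adjoining numbers, a pattern noticed after their values had been seen. Of the 26 strands called higher at the study threshold, 16 had another such strand on the same element or on an adjoining number, or 61.5%, against 9.59% of the other 344 tested strands. They were uc.45- and uc.46-, uc.184+ and uc.185-, uc.418-, uc.419-, uc.420+ and uc.420-, both strands of uc.455, of uc.471 and of uc.472, and both of uc.481. The strands of uc.455 and uc.481 counted only through the other strand of their own element, and each pair counted for both its members. The other 10 were uc.34-, uc.50-, uc.75-, uc.97+, uc.144-, uc.193-, uc.267+, uc.313-, uc.479+ and the plus strand of the element studied in the gut. Of the 103 strands called lower, 52.4% had another strand called lower on the same or an adjoining number, against 43.1% of the other 267. Across 285 pairs of tested strands on adjoining numbers, differences had a Pearson correlation of 0.22 and a Spearman correlation of 0.10, and across 282 pairs whose numbers differ by 2, of -0.06 and -0.15. The correlations did not fall steadily with distance. They were 0.09 and 0.11 across numbers 5 apart and 0.14 and -0.03 across numbers 10 apart, and for strands detected on all 6 arrays the Pearson correlation was 0.19 at 1 apart, 0.35 at 10 apart and 0.24 at 20 apart. Pairs share arrays and, in part, strands, so these are descriptions only. Adjoining numbers can be far apart on the chromosome.

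**Figure D5:**
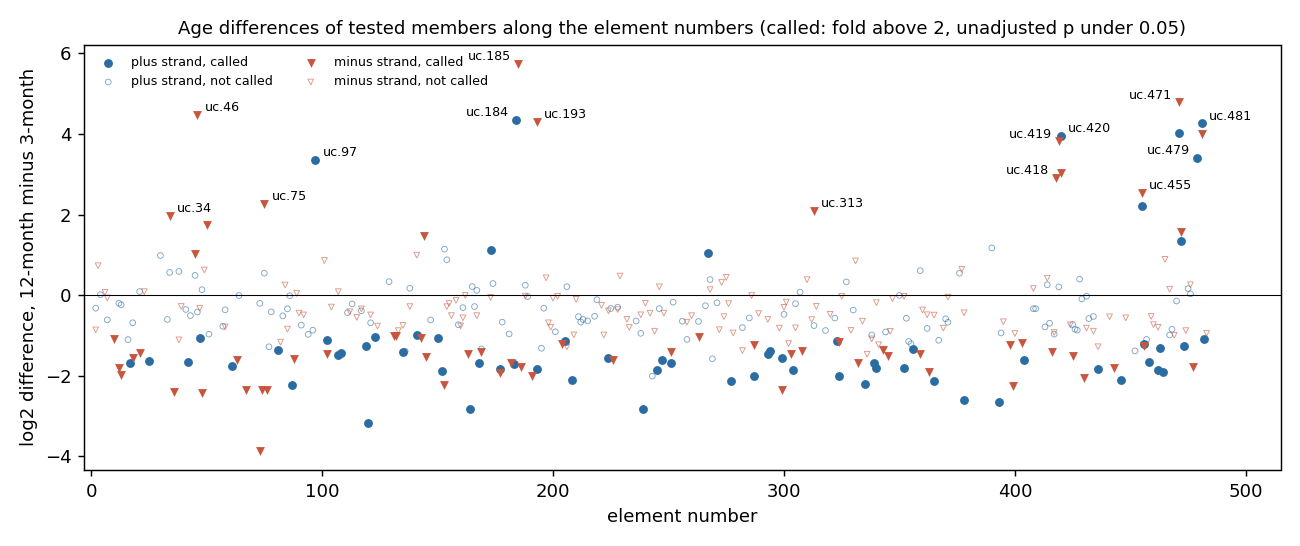
Age difference (12 months minus 3 months, log2) of the 370 tested strands by element number, plus strands as circles and minus strands as triangles. Filled symbols were called at the study threshold, 26 higher and 103 lower, and the elements with the largest rises are named. Falls spread over all numbers, while several rises stand beside each other.

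Genes known to hold or neighbour ultraconserved elements were examined through their mRNA probes. Of 14 genes for RNA-binding and splicing proteins, 13 were tested, of which 5 rose at an adjusted p under 0.05 and none fell (limma), where 5.32% of all tested probes rose and 3.05% fell, and the median difference was 0.83. Ptbp2, a splicing regulator of neurons, went from a mean of 4.77 to 8.76, a difference of 3.99 ± 0.35 (SE, limma, adjusted p = 0.00369). Pcbp2 differed by 2.24, Hnrnph1 by 2.04 and Srsf7 by 1.76 (limma, adjusted p = 0.00763, 0.00897 and 0.0486). Of 17 developmental regulators 8 were tested, of which 1 rose and none fell, with a median of 0.64. This was Pax6, a transcription factor of islet endocrine cells, with a difference of 1.19 ± 0.28 (SE, limma, adjusted p = 0.0489). Both lists were chosen with results of these data known and are given as counts.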

How the data were processed

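Islet RNA of 3 arrays per age was hybridised to a 1-colour rat expression array (design build rn4) carrying mRNA, non-coding RNA and ultraconserved element probes. Per the file headers, the deposited scanner files hold spot intensity from Agilent Feature Extraction 11.0.1.1, as a background-subtracted signal and as median spot and background intensity, with marks for spots well above background and for outliers. The authors' table of processed values holds no ultraconserved element probe and was not used here.

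Background-subtracted intensities were put on the log2 scale, averaged per probe without outlier spots and quantile normalised over 24684 non-control probes. An array counted for a probe where a share of at least 0.5 of its spots was well above background, and probes with 3 or more such arrays of 6 were tested. The ages were compared with limma 3.58.1 in R 4.3.3 (lmFit and eBayes, two-sided, Benjamini-Hochberg over all 17941 tested probes), with age as the only term, and the strand contrast was fitted likewise over 74 elements. The scripts were tested on simulated data. The number of arrays limits the precision, since intensities carry no counting depth. mRNA probes were named through RefSeq accessions, 14274 of 15323 matched, and 1 probe per gene, the brightest, was used.

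Named were the 10 largest rises and falls (adjusted p under 0.05, ages not overlapping, 3 detected arrays in the higher age), elements with both strands called, the 5 largest strand contrasts, 19 elements studied before (12 of them described here without their number) and the 5 brightest strands. uc.141 and uc.378, the other strand contrasts called, and 7 further falls on all 6 arrays were named after their values were seen. Members, lists and rules were chosen with earlier results of these data known. Alternatives were the scaling, normexp correction (offset 50), the filter, moderated variances, the methods' t-test, pairing and leaving out each array. Replicate numbers were checked for pairing: deviations from the age means correlated with r of -0.01, -0.31 and -0.26 between arrays of one number, so the ages were compared unpaired.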

Additional observations from a re-analysis of the deposited data

How the results depend on the processing

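The 48 strands called at an adjusted p under 0.05 became 30 after normexp correction, 26 for strands above background on all 6 arrays, 110 with no filter, 16 with the methods' t-test after Benjamini-Hochberg, 0 with 4 arrays whose names share an ending, 0 with the paired t-test over 3 pairs, 96 at an adjusted p under 0.1, and 12 to 78 when 1 array was left out, and higher calls outnumbered lower ones in several of these settings, as given above. The 129 calls at the study threshold became 57, 58, 72 with those 4 arrays, 70 with the methods' t-test and 41 with the paired t-test. The replicate block gave 8 calls at adjusted p over 3 pairs and 0 over the 2 numbered pairs, where 74 passed the study threshold. The pairing of the third arrays was by elimination, since 1 title has no number. The numbers are thus shared by name only. In the 3 fits with 0 calls at adjusted p, unadjusted calls with a fold above 2 numbered 74, 72 and 41.

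The median difference of -0.66 became -1.08 with the 75th percentile shift, -0.23 after normexp correction and -0.17 with no filter, and was negative in all settings run. The share of higher calls at the study threshold was 20.2%, 12.7% with the shift, 36.8% after normexp, 27.6% on all 6 arrays, 40.7% with no filter, 24.3% and 41.9% with the blocks of 3 and 2 pairs, 34.7% with 4 arrays, 35.7% with the t-test, 46.3% with the paired t-test and 18.4% to 31.4% leaving out 1 array. Called strand contrasts numbered 7, then 19 after normexp, 31 with no filter, 0 with 4 arrays, with the t-test and with the paired t-test (14, 18 and 8 at an unadjusted p under 0.05), 2 to 15 leaving out 1 array, and with the replicate block 2 over 3 pairs and 1 over 2. The gap of 7.80 percentage points against mRNA probes of equal brightness became 13.1 with the shift, 14.7 on all 6 arrays, 1.69 with no filter, 0.939 with 4 arrays, 0.693 with the t-test, 0.413 with the paired t-test, 0.298 to 8.51 leaving out 1 array and 0.0911 with the replicate block over 2 pairs. The gap of 14.9 on strands above background on all 6 arrays, chosen after seeing the data, became 1.07 with that block, 5.85 with 4 arrays, 2.43 with the t-test, 0.895 with the paired t-test and 3.87 to 18.7 leaving out 1 array. The cause was not tested.

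Among the named strands, those that changed sign had passed neither threshold; other strands were not followed. Among strands of elements studied before, the 75th percentile shift turned uc.48+ to -0.15, the plus strands of the TRA2B and OGT elements to -0.26 and -0.19 and a plus strand on no 12-month array above background to -0.46. It also turned uc.84- to -0.11. Normexp correction gave 0.025 for the minus strand of the element studied in the gut and -0.035 for the OGT strand. With 4 arrays uc.84- was -0.15 and uc.371- 0.49, and with the replicate block over 2 pairs uc.340- was 0.18. Leaving out 1 array gave -0.53 to 0.53 for uc.48+, -0.37 to 0.15 for the minus strand studied in the gut, -0.087 to 0.40 for the plus strand at -0.46 above, -0.43 to 0.10 for uc.305+, -0.45 to 0.10 for uc.340- and -0.32 to 0.32 for uc.371-. Signal over background limits the comparison: at 12 months a strand had to reach a normalised log2 signal of 4.26 to 5.13 to be well above background, against 2.89 to 3.17 at 3 months.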

Other observations

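Where the human catalogue places an element inside a gene, the mRNA probe of that gene can be set beside the strands. Host genes of 18 elements were listed from general knowledge after the values had been seen, with no position in the files to check them by, and 17 host genes were tested. Of these, 9 rose at an adjusted p under 0.05 (limma) and none fell, where 5.32% of all tested probes rose. This list shares genes with that of RNA-binding and splicing proteins above, and Ptbp2, Pcbp2, Hnrnph1, Hnrnpdl and Srsf7 were counted as rises in both. The counts of the lists are therefore not independent. These values are descriptions, and which strand of an element runs with its host gene was not determined.

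In some elements a strand and the host probe both rose. uc.455+ and uc.455- differed by 2.22 and 2.53 and Rbm39, a splicing co-factor, rose by 1.83 (limma, adjusted p = 0.0149). uc.144- rose by 1.46 and Hnrnpdl, an RNA-binding protein, by 1.57 (limma, adjusted p = 0.0240 and 0.0219). uc.185- rose by 5.74 and Clk4, a kinase of splicing factors, by 1.34 (limma, adjusted p = 0.00319 and 0.0475). uc.193- rose by 4.31 and Syncrip, an RNA-binding protein, by 3.06 (limma, adjusted p = 0.00345 and 0.00505), while uc.193+, on no 12-month array above background, was at least 1.95-fold lower. uc.46- rose by 4.48 (limma, adjusted p = 0.00891), with a difference of 1.04 for Hnrnpu, a nuclear RNA-binding protein (limma, adjusted p = 0.0624).

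In others the signs were opposite. uc.208+ fell by 2.11 (limma, adjusted p = 0.0287), with a difference of 0.83 for the splicing factor gene Tra2a (limma, adjusted p = 0.106). uc.186- differed by -1.79 (limma, adjusted p = 0.0993) and Hnrnph1 rose by 2.04 (limma, adjusted p = 0.00897). uc.63- differed by -1.61 (limma, adjusted p = 0.0879) and Xpo1, a nuclear export receptor, rose by 1.02 (limma, adjusted p = 0.0425). The strands of the element in Pcbp2 differed by -0.99 and -1.09 (limma, adjusted p = 0.167 and 0.203) and Pcbp2 rose by 2.24 (limma, adjusted p = 0.00763). uc.33+, on no 12-month array above background, did not pass (limma, adjusted p = 0.348) beside the rise of Ptbp2 by 3.99 (limma, adjusted p = 0.00369).

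For 5 of the remaining tested hosts neither the strand nor the host passed an adjusted p under 0.05. Strand and host differed by -1.21, -1.27 and -0.13 for uc.456+, uc.456- and Srsf6, by -1.82 and 0.10 for uc.443- and Hnrnpm, by 0.17 and 0.14 for the plus strand of the element in Tra2b and the Tra2b probe, and by 0.16 and 0.66 for the plus strand of the element in Ogt and the Ogt probe, while for uc.189+, on no 12-month array above background, Srsf3 differed by -0.29. For uc.184+, at least 13.8-fold higher, the host Cpeb4 differed by 1.27 (limma, adjusted p = 0.251). uc.50- differed by 1.75 (limma, adjusted p = 0.0585) beside a rise of Srsf7 of 1.76 (limma, adjusted p = 0.0486).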
